A study of Sus scrofa with 64 samples.

Results

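The genes described here encode the proteasome, its assembly chaperones, its activators and its inhibitor, measured by RNA sequencing in the mid-jejunum of 64 female piglets. They were picked by name, as genes of the PSMA to PSMG series other than the immune-induced PSMB8, PSMB9, PSMB10 and PSME2, with a mean CPM, the count scaled to a common library size, of at least 1. Of the 31908 gene IDs counted, 40 matched by name and 37 passed, of which 36 encode proteasome genes and PSME3IP1 encodes a binding partner of PSME3. The other 3 matches were PSMA8 and PSMB11, with 0 counts in every pig, and PSMC3IP, a recombination factor whose mean level was 0.697 CPM, just below the limit. The lowest level inside the limit was that of PSME1, at 1.17 CPM. PSMA6, PSMB5, PSMB6, PSMG1, PSMG2 and PSMG4 were not analysed here.

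The piglets were TN20 animals, a Large White x Norwegian Landrace cross, and each of the 4 groups held 16 pigs with 1 library each. On the farm, the fed 4-week piglets suckled their sow while the fasted 4-week piglets spent 48 h in a pen of their own. The 6-week piglets had moved to a research facility at 4 weeks of age, lived in pairs and ate a standard weaning diet for 2 weeks, and were then fed on or fasted for 48 h. Water was free in all 4 groups. Age, weaning, diet and housing therefore changed together between 4 and 6 weeks and cannot be told apart, and at 4 weeks fasting came with separation from the sow. No litter, pen or sampling day entered the tests, so p-values measure the spread between these pigs.

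The proteasome is the protease that degrades most short-lived and damaged cytosolic and nuclear proteins once they carry ubiquitin. Its barrel-shaped core is built of an outer alpha ring and an inner beta ring on each side, with the proteolytic sites inside the beta rings. A cap made of a base, whose ATPases unfold the substrate, and a lid, which removes ubiquitin, feeds the core. Cells tend to make the subunits together, and in the intestinal epithelium the proteasome works in a tissue of rapid protein turnover.

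Libraries held 18774144 to 21159989 counts, 14062 genes were tested, and the 37 genes other than PSME1 (10 to 45 counts per pig) and PSMG3 (72 to 329) had at least 100 counts in every pig. Levels below are CPM of library sizes scaled by TMM, a scaling to the bulk of genes. A call means an adjusted p under 0.05 in edgeR's quasi-likelihood test, adjusted by Benjamini-Hochberg over all genes tested. CPM are not divided by transcript length, so levels were not compared between genes. The tissue was described by its markers, since the extraction protocol speaks of muscle. The summed level of the listed absorptive enterocyte markers, of which 11 were tested, was 16143 to 178201 CPM across pigs. That of the listed smooth muscle markers, of which 9 were tested, was 48.2 to 867.5 CPM. These sums are not corrected for transcript length and are given side by side only.

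To determine how the proteasome genes respond to the loss of feed, fasted piglets were compared with fed piglets at each age. In weaned 6-week piglets most of the genes fell at the RNA level: 30 of 37 genes were lower in fasted pigs and 1 was higher, where 18.4% of all tested genes fell and 22.7% rose. The median log2 fold change of the 37 genes was -0.38, against 0.01 over all genes tested. In suckling 4-week piglets 11 genes rose and 1 fell, where 33.9% of all tested genes rose and 29.4% fell, so the number that rose was near the background share. The median there was 0.07, against 0.03 over all genes. When the difference between both fasting responses was tested, 29 genes responded lower at 6 weeks than at 4 weeks and 1 responded higher, beside 26.6% and 27.1% of all genes. Of the 11 genes that rose at 4 weeks, 8 fell at 6 weeks, and 21 genes that were not called at 4 weeks fell at 6 weeks. The share of all tested genes with such pairs of calls is not given here, so these counts are descriptions only. In bulk tissue, fewer cells of a type and less RNA per cell cannot be told apart.

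**Figure D1:**
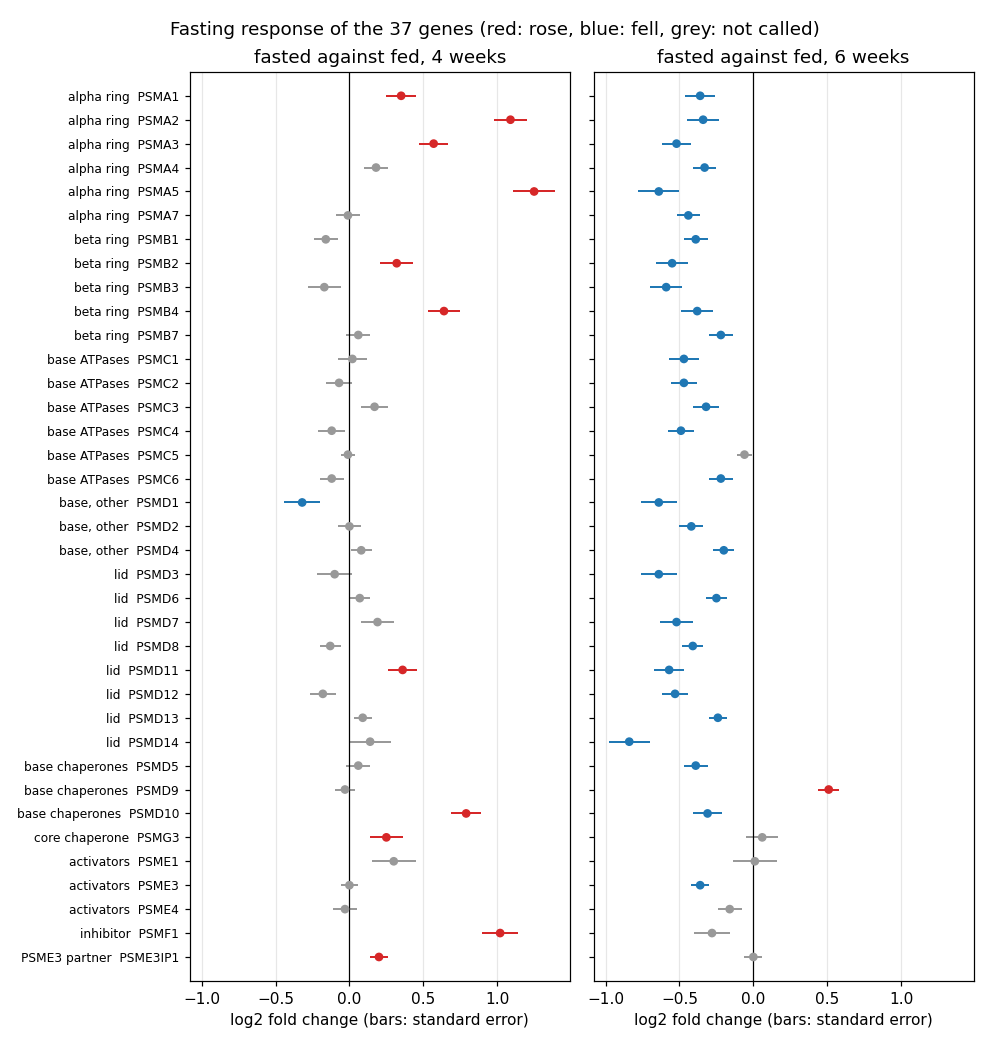
Log2 fold change of fasted against fed piglets (points, with standard error bars) for each of the 37 genes at 4 weeks (left) and 6 weeks (right), grouped by role, with red for a rise, blue for a fall and grey for no call. At 4 weeks 11 genes rose and 1 fell; at 6 weeks 30 fell and PSMD9 alone rose.

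The alpha ring gates the entry to the core. All 6 measured alpha genes fell at 6 weeks (median -0.40), whereas 4 of them rose at 4 weeks. Of all tested genes 18.4% fell at 6 weeks and 33.9% rose at 4 weeks. PSMA5, an alpha ring subunit, ranged from 44.5 to 78.5 CPM in fed 4-week piglets (median 52.6) and from 53.3 to 195 CPM in fasted ones (median 135). At 6 weeks it ranged from 58.8 to 143 CPM in fed piglets (median 103) and from 37.8 to 103 CPM in fasted ones (median 60.4). All 16 fasted 4-week pigs were above the fed median and 15 of 16 fasted 6-week pigs were below it, though the groups overlapped at both ages. The log2 fold change was 1.25 (SE 0.14, adjusted p = 9.4e-12) at 4 weeks and -0.64 (SE 0.14, adjusted p = 0.00014) at 6 weeks. The difference between them, -1.89 (SE 0.2, adjusted p = 2.4e-12), was the most negative among the 37 genes.

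PSMA2, another alpha ring subunit, went from a median of 86.8 CPM (66.5 to 114) in fed to 182 CPM (93.9 to 258) in fasted 4-week piglets. At 6 weeks its median was 145 CPM (97.7 to 200) in fed and 106 CPM (73.5 to 161) in fasted piglets. Again every fasted 4-week pig lay above the fed median, while 13 of 16 fasted 6-week pigs lay below theirs. PSMA2 rose by 1.09 (SE 0.11, adjusted p = 2.9e-13) on the log2 scale at 4 weeks and its 6-week log2 fold change was -0.34 (SE 0.11, adjusted p = 0.009). PSMA1 had medians of 86.1 CPM (76.4 to 112) in fed and 118 CPM (61.1 to 183) in fasted 4-week piglets, and of 97.9 CPM (73.6 to 126) and 71.8 CPM (56.1 to 119) at 6 weeks. Its log2 fold changes were 0.35 (SE 0.1, adjusted p = 0.0027) and -0.36 (SE 0.1, adjusted p = 0.0041). PSMA3 rose by 0.57 at 4 weeks and changed by -0.52 at 6 weeks. PSMA4 and PSMA7 were not called at 4 weeks (0.18 and -0.01) and fell at 6 weeks (-0.33 and -0.44).

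In the beta ring all 5 measured genes fell at 6 weeks (median -0.39), beside 18.4% of all tested genes. PSMB2 and PSMB4 rose at 4 weeks, beside 33.9% of all tested genes. PSMB4, a structural beta subunit, had a median of 109 CPM (99.8 to 152) in fed and 176 CPM (102 to 263) in fasted 4-week piglets. At 6 weeks the medians were 135 CPM (98.5 to 174) and 95.2 CPM (71.7 to 143). The ranges overlapped, but 15 of 16 fasted 4-week pigs were above the fed median and 13 of 16 fasted 6-week pigs below it. The log2 fold changes were 0.64 (SE 0.11, adjusted p = 3.5e-07) and -0.38 (SE 0.11, adjusted p = 0.0027). PSMB2 rose by 0.32 at 4 weeks and changed by -0.55 at 6 weeks. PSMB7, which carries the trypsin-like active site, had medians of 37.8 CPM (33 to 50.6) and 38.6 CPM (30.7 to 60.4) in fed and fasted piglets at 4 weeks, and of 44.3 CPM (36.1 to 55.7) and 38.6 CPM (28.8 to 48.1) at 6 weeks. It was not called at 4 weeks (0.06, SE 0.08, adjusted p = 0.48) and fell modestly at 6 weeks (-0.22, SE 0.08, adjusted p = 0.019). PSMB1 and PSMB3 were not called at 4 weeks (-0.16 and -0.17) and fell at 6 weeks (-0.39 and -0.59).

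**Figure D2:**
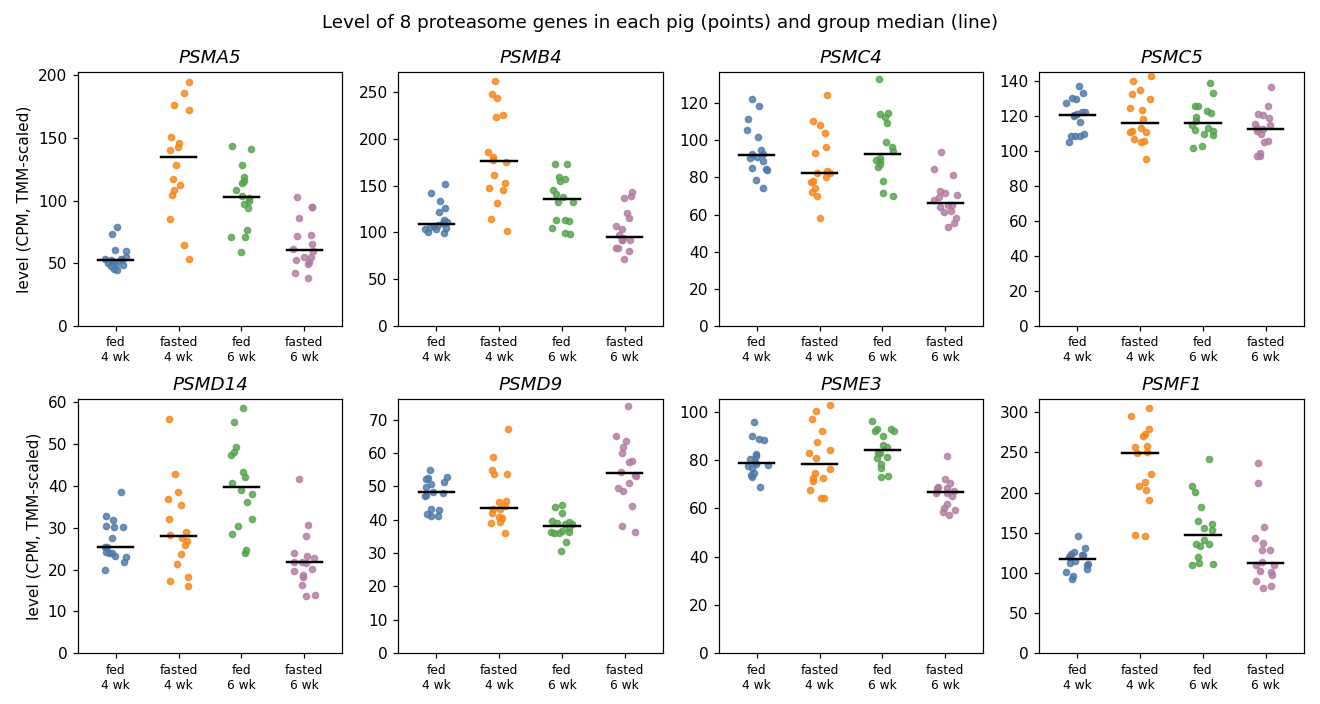
Level in CPM of 8 genes from different parts of the complex in each pig (points) with the group median (line), for fed and fasted piglets at 4 and 6 weeks. PSMF1 separates the 4-week groups fully, PSMD9 is the gene that is higher in fasted 6-week piglets, and PSMC5 stays within 95.5 to 143 CPM in all pigs.

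The 6 base ATPases, PSMC1 to PSMC6, form the unfolding motor. None was called at 4 weeks (log2 fold changes of -0.12 to 0.17), and 5 of 6 fell at 6 weeks, beside 18.4% of all tested genes. PSMC4 had medians of 91.8 CPM (74.5 to 122) in fed and 82.4 CPM (57.9 to 124) in fasted 4-week piglets, and of 92.4 CPM (70.2 to 133) and 66.4 CPM (53.4 to 93.5) at 6 weeks. At 6 weeks 10 of 16 fasted pigs lay below every fed pig, and the log2 fold change was -0.49 (SE 0.09, adjusted p = 7.5e-06), against -0.12 (SE 0.09, adjusted p = 0.22) at 4 weeks. PSMC5 was called in none of the 5 comparisons made here. Its group medians were 113 to 121 CPM and its fasting log2 fold changes -0.01 (SE 0.05, adjusted p = 0.87) and -0.06 (SE 0.05, adjusted p = 0.37). PSMC5 overlaps FTSJ3 in the annotation, and the strand setting of the counting was not given, so its reads are uncertain.

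Among the remaining base genes, the scaffold subunit PSMD1 was the 1 member that fell at 4 weeks. Its medians were 62 CPM (50.1 to 84.5) in fed and 47.7 CPM (30.6 to 85.3) in fasted 4-week piglets, and 65.3 CPM (45.3 to 101) and 41.8 CPM (26.9 to 75) at 6 weeks. In both fasted groups 10 of 16 pigs lay below every fed pig of their age. Its log2 fold change was -0.32 (SE 0.12, adjusted p = 0.012) at 4 weeks and -0.64 (SE 0.12, adjusted p = 1.1e-05) at 6 weeks, and the difference was not called (-0.31, SE 0.16, adjusted p = 0.099). The 4-week fall was not called under every alternative run, while the 6-week fall was. PSMD2, the companion scaffold, fell at 6 weeks (-0.42). PSMD4, a ubiquitin receptor, had medians of 45.3 CPM (40.3 to 60.4) and 47.8 CPM (38.1 to 64.3) at 4 weeks, and of 44.6 CPM (34.6 to 56.6) and 37.8 CPM (30.2 to 49.1) at 6 weeks. It was not called at 4 weeks (0.08, SE 0.07, adjusted p = 0.33) and fell at 6 weeks (-0.2, SE 0.07, adjusted p = 0.025).

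All 8 measured lid genes were called lower at 6 weeks, with a median log2 fold change of -0.53, beside 18.4% of all tested genes. PSMD14, the enzyme that strips ubiquitin chains from substrates, had the lowest fold change of the 37 genes at that age. It ranged from 24 to 58.6 CPM in fed 6-week piglets (median 39.9) and from 13.7 to 41.8 CPM in fasted ones (median 21.7). At 4 weeks it ranged from 19.8 to 38.6 CPM in fed (median 25.4) and from 16.1 to 56.1 CPM in fasted piglets (median 27.9). Thus 13 of 16 fasted 6-week pigs lay below every fed pig, while the 4-week groups lay across each other. The log2 fold change was -0.84 (SE 0.14, adjusted p = 1.9e-06) at 6 weeks and 0.14 (SE 0.14, adjusted p = 0.39) at 4 weeks, and the difference was called (-0.98, SE 0.2, adjusted p = 2.3e-05).

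PSMD3, a structural lid subunit, had medians of 135 CPM (88.5 to 194) in fed and 84.5 CPM (61.8 to 141) in fasted 6-week piglets, a log2 fold change of -0.64 (SE 0.12, adjusted p = 1.1e-05). At 4 weeks the medians were 128 CPM (102 to 185) and 110 CPM (76.3 to 203), with no call (-0.1, SE 0.12, adjusted p = 0.45). At 6 weeks 10 of 16 fasted pigs lay below every fed pig, and at 4 weeks the fasted range enclosed the fed range. PSMD11, a lid subunit known from human cells to raise proteasome assembly, was the 1 lid gene that rose at 4 weeks. Its medians were 107 CPM (92.1 to 142) and 126 CPM (76.3 to 210) at 4 weeks, and 149 CPM (93.8 to 174) and 91.8 CPM (76.4 to 141) at 6 weeks. All 16 fasted 6-week pigs lay below the fed median. Its log2 fold changes were 0.36 (SE 0.1, adjusted p = 0.00096) and -0.57 (SE 0.1, adjusted p = 2.9e-06). The other lid genes, PSMD6, PSMD7, PSMD8, PSMD12 and PSMD13, were not called at 4 weeks.

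Assembly chaperones did not move as one. PSMD9, a chaperone of the base, was the single member that rose at 6 weeks. It ranged from 30.5 to 44.5 CPM in fed 6-week piglets (median 38.1) and from 36.2 to 74 CPM in fasted ones (median 53.9). In fed and fasted 4-week piglets its medians were 48.1 CPM (41 to 54.9) and 43.6 CPM (36 to 67.2). Fasted 6-week pigs were high, with 13 of 16 above every fed pig. The log2 fold change was 0.51 (SE 0.07, adjusted p = 1.5e-07) at 6 weeks and -0.03 (SE 0.07, adjusted p = 0.71) at 4 weeks, and PSMD9 was also the 1 member whose difference was called higher (0.55, SE 0.1, adjusted p = 1.2e-05). Its rise at 6 weeks was called under all 11 alternatives run.

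PSMD10, also known as gankyrin, another base chaperone, had medians of 8.56 CPM (5.7 to 11.6) in fed and 13.4 CPM (10.7 to 22.1) in fasted 4-week piglets. At 6 weeks the medians were 12.5 CPM (9.58 to 15.4) and 10.5 CPM (6.95 to 12.2). Every fasted 4-week pig lay above the fed median and every fasted 6-week pig below it. PSMD10 rose by 0.79 (SE 0.1, adjusted p = 1.4e-09) at 4 weeks and its 6-week log2 fold change was -0.31 (SE 0.1, adjusted p = 0.013). The annotation places it across ATG4A on chromosome X, so its reads are uncertain in the same way as those of PSMC5. PSMD5, the third base chaperone, fell at 6 weeks (-0.39). PSMG3, a chaperone of the core, rose at 4 weeks at the edge of the threshold (0.25, SE 0.11, adjusted p = 0.041) and was not called at 6 weeks (0.06, SE 0.11, adjusted p = 0.7).

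Of the activators, which open the core without the ubiquitin-dependent cap, PSME3 fell at 6 weeks. Its medians were 84.3 CPM (72.9 to 96.1) in fed and 66.9 CPM (57.4 to 81.7) in fasted 6-week piglets, and 79 CPM (68.8 to 95.9) and 78.5 CPM (64.3 to 103) at 4 weeks. At 6 weeks 15 of 16 fasted pigs lay below every fed pig, the highest such number among the 37 genes. The log2 fold change was -0.36 (SE 0.06, adjusted p = 1.1e-06), against 0 (SE 0.06, adjusted p = 0.96) at 4 weeks. PSME4, a nuclear activator, was not called with fasting at either age (-0.03, SE 0.08, adjusted p = 0.78, and -0.16, SE 0.08, adjusted p = 0.11). Its medians were 37.5 CPM (26.4 to 54.7) and 40.4 CPM (28.1 to 45.2) at 4 weeks, and 46.2 CPM (37.7 to 56.3) and 40.4 CPM (30.5 to 53.9) at 6 weeks. PSME1, an interferon-inducible activator subunit, was near the detection limit with medians of 1.03 to 1.25 CPM. It was not called in any comparison (0.3, SE 0.15, adjusted p = 0.078 at 4 weeks and 0.01, SE 0.15, adjusted p = 0.96 at 6 weeks). It overlaps EMC9 in the annotation.

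PSMF1, an inhibitor that binds the core, was the 1 member whose groups did not overlap. Of all tested genes 1.91% were fully higher and 2.73% fully lower in fasted 4-week piglets, so 1 of 37 genes is near the background share. PSMF1 ranged from 92.1 to 145 CPM in fed 4-week piglets (median 117) and from 146 to 305 CPM in fasted ones (median 250). At 6 weeks the ranges were 110 to 242 CPM (median 147) in fed and 80.9 to 236 CPM (median 112) in fasted piglets. All 16 fasted 4-week pigs were thus above every fed pig, while 13 of 16 fasted 6-week pigs lay below the fed median within overlapping ranges. The log2 fold change was 1.02 (SE 0.12, adjusted p = 3.6e-11) at 4 weeks and -0.28 (SE 0.12, adjusted p = 0.051) at 6 weeks, and the difference was called (-1.3, SE 0.17, adjusted p = 1.6e-09). No member separated the 6-week groups, where 0.213% of all genes were fully lower and 0.164% fully higher. PSME3IP1, which is no subunit, rose at 4 weeks (0.2) and not at 6 weeks (0).

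The next question was whether the genes moved together from pig to pig. In fasted 6-week piglets 18 to 36 of the 37 genes (median 33) lay below the fed median, pig by pig, and in fasted 4-week piglets the number ran from 1 to 31 (median 16.5). Fed piglets, set against the median of their own group, had 1 to 35 genes below it at 6 weeks (median 15.5) and 0 to 35 at 4 weeks (median 21.5). The summed level of the 36 proteasome genes, without PSME3IP1, was 2377 to 3579 CPM (median 3085) in fed and 1767 to 2991 CPM (median 2207) in fasted 6-week piglets. At 4 weeks it was 2272 to 3145 CPM (median 2472) in fed and 2042 to 4283 CPM (median 2958) in fasted piglets, the widest spread of the 4 groups. Over the 630 pairs of the 36 proteasome genes, the median Spearman correlation across the 16 pigs of a group was 0.54 (fed) and 0.75 (fasted) at 4 weeks, and 0.57 (fed) and 0.5 (fasted) at 6 weeks. Over all tested genes the corresponding medians were -0.01, -0.01, 0 and 0. These correlations are descriptions, since all genes of a pig share a library and its depth. PSMD9 ran against the rest in fasted 4-week piglets, with a median correlation of -0.42 with the other genes, and PSMD14, PSMB4, PSMA4 and PSMD7 tracked them most closely at 0.88.

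Single pigs stood out. Fasted 4-week pig 19 held the highest level of its group for 25 of the 37 genes, and fasted 6-week pig 51 for 22. Pig 10 held the lowest level of the fasted 4-week group for 19 genes and pig 47 that of the fasted 6-week group for 17. Without pig 51, 30 genes still fell at 6 weeks, and without pig 19, 11 genes rose and 5 rather than 1 fell at 4 weeks.

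**Figure D3:**
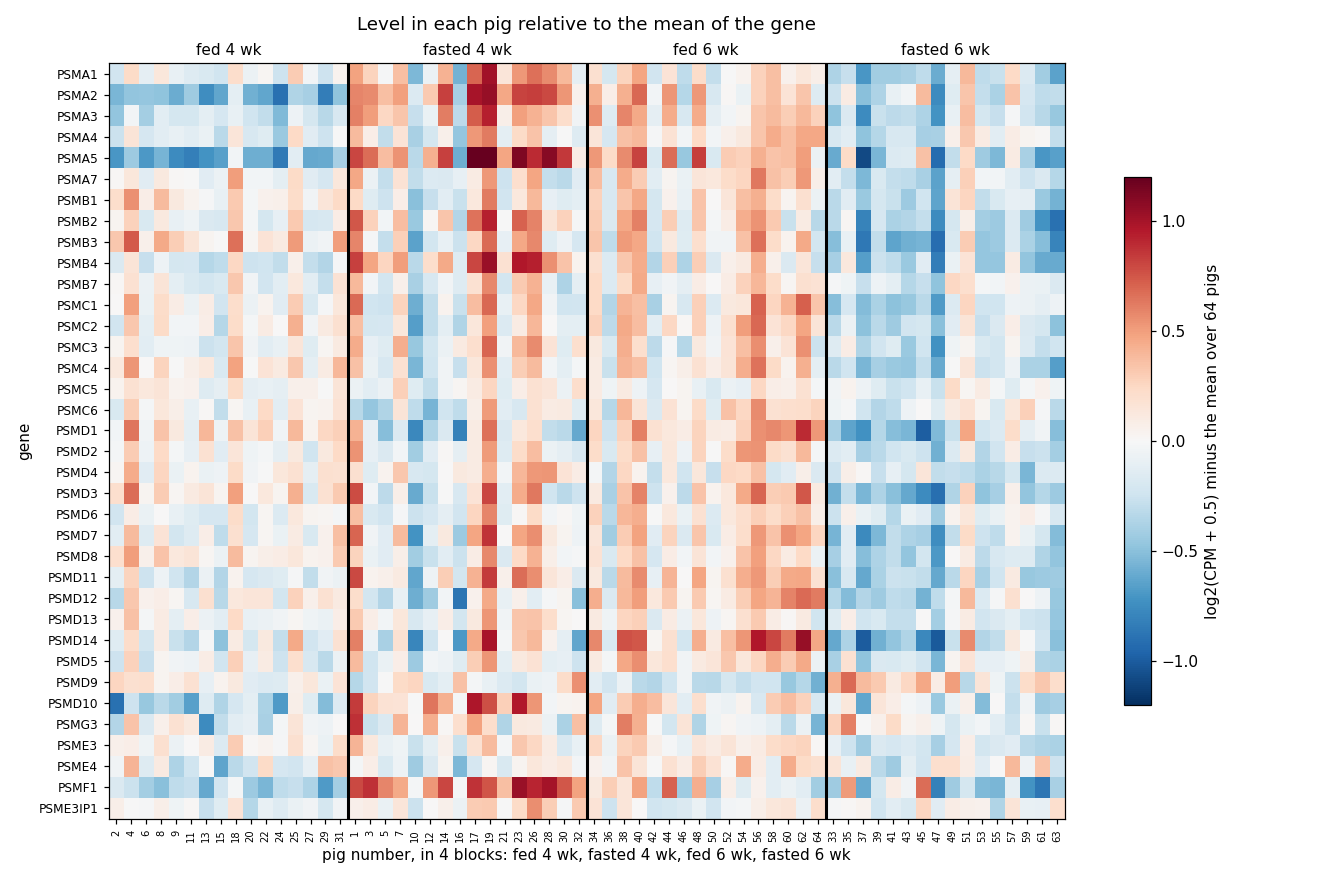
Level of 36 of the 37 genes (PSME1 left out) in each of the 64 pigs, as log2(CPM + 0.5) minus the gene's mean over all pigs, with red above and blue below the mean. The fasted 6-week block is mostly blue apart from PSMD9, and within the fasted 4-week block columns differ, with pig 19 red and pig 10 blue for most genes.

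Markers of other cells and states moved with the groups. Of all tested genes 33.9% rose and 29.4% fell with fasting at 4 weeks, and 22.7% rose and 18.4% fell at 6 weeks. The 15 measured cell cycle markers all rose in fasted 4-week piglets and 5 fell in fasted 6-week piglets. The summed level of the listed cell cycle markers was 99.3 to 232.4 CPM in fed and 111 to 776.6 CPM in fasted pigs at 4 weeks, and 217 to 671.6 CPM and 148 to 589.5 CPM at 6 weeks. Of 17 interferon-induced genes 16 rose at 4 weeks and 10 fell at 6 weeks. The listed interferon-induced genes summed to 2419 to 4947 CPM in fed and 6063 to 32079 CPM in fasted 4-week pigs, and to 3808 to 18236 CPM and 3273 to 17697 CPM at 6 weeks. Fed 4-week pigs were thus the lowest group for both lists. All 9 tested smooth muscle markers fell at 4 weeks and 6 fell at 6 weeks. The listed smooth muscle markers summed to 231 to 867.5 CPM in fed and 48.2 to 348.4 CPM in fasted 4-week pigs, and to 182 to 555.7 CPM and 66.7 to 293.9 CPM at 6 weeks. In these 3 lists 0 measured markers were at 0 throughout a group. Pig 19 had the second highest and pig 51 the highest mean log2 CPM of cell cycle markers in their groups (5.5 and 5.11). Fasted 4-week pig 1 had the highest mean of its group (5.51) but held the highest level for only 3 of the 37 genes. The low pigs 10 and 47 ranked 13 and 14 from the top of their groups (3.72 and 3.55). Fasted 6-week pig 55 ranked 4 (4.64), yet 36 of its 37 genes lay below the fed median. The part of the cell cycle and interferon genes in the proteasome result was not tested. When the levels of smooth muscle and B cell markers entered the model, 33 genes fell at 6 weeks, while at 4 weeks 5 rose and 8 fell, with PSMD1 not among those 8. The smooth muscle markers themselves fell with fasting at both ages, so this fit can take up part of the fasting contrast. The share of all genes called in that fit is not given here.

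The 4-week counts also depended on the scaling. With library size alone, 28 genes rose and 0 fell at 4 weeks, while the median of all genes moved from 0.03 to 0.25 and that of the 37 genes from 0.07 to 0.3. Relative to all genes the members' median was thus nearly the same. The share of all genes called with library size alone is not given here. PSMA2, PSMA3, PSMA5, PSMD10 and PSMF1 were called higher at 4 weeks under all 11 alternatives run, and the other 6 rises were not. Of these genes, PSMA3 and PSMD10 overlap another gene in the annotation, so their reads are uncertain. At 6 weeks all 30 falls were called under every alternative but a test against a 1.2-fold change, which 16 of them passed.

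Age was compared within fed and within fasted piglets. These comparisons share their pigs with the fasting comparisons, so their values are given side by side only. In fed piglets 13 genes were higher at 6 than at 4 weeks and 1 was lower, beside 31.9% and 32.3% of all genes. The number that rose was thus near the background share. The median log2 difference was 0.16, against -0.01 over all genes. PSMA5 (0.91, SE 0.14, adjusted p = 5.6e-08), PSMA2 (0.75, SE 0.11, adjusted p = 1.8e-08) and PSMD14 (0.56, SE 0.14, adjusted p = 0.00034) had the largest rises, and PSMD9 alone fell (-0.33, SE 0.07, adjusted p = 9.5e-05). No member separated the fed groups, where 2.79% of all genes were fully higher and 5.09% fully lower at 6 weeks. In all, 5 of the 6 alpha genes and 4 of the 8 lid genes rose, and no beta ring, base ATPase or other base gene was called. PSME4 was called here only, among the comparisons made (0.21, SE 0.08, adjusted p = 0.019). With library size alone 31 genes rose and 0 fell in fed piglets, with the median of all genes at 0.2 and the share of all genes called not given here.

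In fasted piglets 25 genes were lower at 6 than at 4 weeks and 1 was higher, beside 23.2% and 19.7% of all genes. The median was -0.32, against -0.01 over all genes. The largest falls were those of PSMA5 (-0.98, SE 0.14, adjusted p = 3.8e-08), PSMF1 (-0.89, SE 0.12, adjusted p = 1e-08) and PSMB4 (-0.8, SE 0.11, adjusted p = 8.4e-09). PSMD9 was again the exception and rose (0.22, SE 0.07, adjusted p = 0.014). All 16 fasted 6-week pigs were below the fasted 4-week median for PSMA5, PSMA2, PSMB2, PSMB4, PSMC3, PSMD10 and PSMF1, although no member separated these groups, where 0.192% of all genes were fully lower and 0.149% fully higher.

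Interferon and other immune signals replace the standard catalytic subunits of the core by PSMB8, PSMB9 and PSMB10 and add the activator subunit PSME2. Those 4 genes, which are not among the 37, all rose with fasting at 4 weeks, where 33.9% of all tested genes rose. None of the 4 was called at 6 weeks. PSMB8 went from a median of 82.9 CPM (49.9 to 132) in fed to 270 CPM (173 to 358) in fasted 4-week piglets, without overlap, and its medians at 6 weeks were 210 CPM (141 to 302) and 206 CPM (151 to 266). Fed 4-week piglets were thus the low group and the other 3 groups overlapped one another. Its log2 fold change was 1.66 (SE 0.12, adjusted p = 2.3e-18) at 4 weeks and -0.06 (SE 0.12, adjusted p = 0.69) at 6 weeks. PSMB9 rose by 1.56, PSME2 by 0.68 and PSMB10 by 0.48 at 4 weeks. At 6 weeks their fold changes were -0.21, -0.25 and -0.05.

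Within a library, the count of an immune-induced subunit relative to that of PSMB7 does not depend on library scaling. PSMB10 is the subunit that replaces PSMB7, and the counterparts of PSMB8 and PSMB9 were not analysed here. The log2 ratio of PSMB8 to PSMB7 was 1.02 ± 0.47 (SD, n = 16) in fed and 2.67 ± 0.2 in fasted pigs at 4 weeks, and 2.26 ± 0.3 and 2.42 ± 0.27 at 6 weeks. The 4-week ratios did not overlap (0.28 to 1.78 and 2.25 to 2.94). The 4-week difference was 1.65 (SE 0.13), with an adjusted p of 4e-05 in a 2-sided permutation test over 16 tests, which comes from the smallest p that 100000 resamples can give (1e-05), and the 6-week difference was 0.16 (SE 0.1, permutation adjusted p = 0.17). For PSMB9 the differences were 1.55 (SE 0.13, permutation adjusted p = 4e-05) and -0.01 (SE 0.1, permutation adjusted p = 0.92), and for PSMB10 0.44 (SE 0.09, permutation adjusted p = 0.00013) and 0.15 (SE 0.1, permutation adjusted p = 0.17). Between the ages, fed piglets had a PSMB8 to PSMB7 ratio higher by 1.24 (SE 0.14, permutation adjusted p = 4e-05) at 6 weeks and a PSMB9 ratio higher by 1.3 (SE 0.14, permutation adjusted p = 4e-05). In fasted piglets the age differences were -0.25 (SE 0.08, permutation adjusted p = 0.018) and -0.26 (SE 0.09, permutation adjusted p = 0.022). The ratio of PSME1 to PSME3 differed by 0.31 (SE 0.13, permutation adjusted p = 0.052) and 0.36 (SE 0.16, permutation adjusted p = 0.058) and did not pass.

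**Figure D4:**
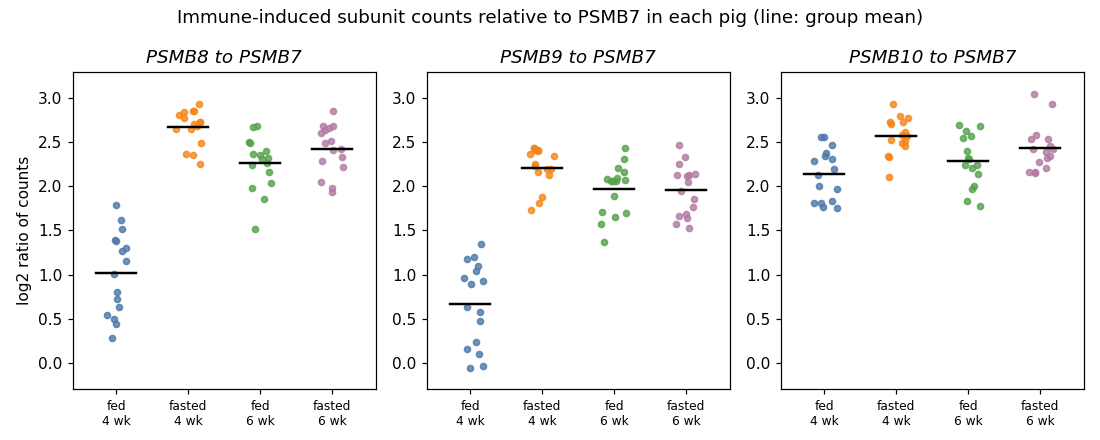
Log2 ratio of the counts of PSMB8, PSMB9 and PSMB10 to those of PSMB7 in each pig (points) with the group mean (line), for the 4 groups. Fed 4-week piglets have the lowest mean in all 3 panels, and for PSMB8 the fed (0.28 to 1.78) and fasted (2.25 to 2.94) 4-week pigs do not overlap.

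Of 10 further proteasome subunits and factors, 3 rose and 3 fell at 4 weeks, near the 33.9% and 29.4% of all genes. At 6 weeks 1 rose and 5 fell, beside 22.7% and 18.4% of all genes. POMP, which matures the core, ranged from 4.65 to 9.58 CPM (median 6.56) in fed and from 2.76 to 6.09 CPM (median 4.25) in fasted 4-week piglets, where all 16 fasted pigs lay below the fed median. It fell at both ages (-0.62, SE 0.11, adjusted p = 1.9e-06, and -0.29, SE 0.11, adjusted p = 0.029), unlike the core subunits that rose at 4 weeks. ADRM1, a ubiquitin receptor of the cap, rose at 4 weeks (0.24) and fell at 6 weeks (-0.4), and USP14, a deubiquitinase bound to the cap, fell at 6 weeks (-0.66). Of 5 regulators of proteasome genes, NFE2L1, the factor known to raise proteasome gene transcription, fell at both ages (-0.42, SE 0.07, adjusted p = 3.8e-07, and -0.26, SE 0.07, adjusted p = 0.0018). NFE2L2, a factor of the oxidative stress response, rose at both ages (0.3 and 0.28), and MAFF, a small partner of such factors, fell at both (-0.52 and -0.81). In that list 2 genes rose and 3 fell at 4 weeks, and 1 rose and 2 fell at 6 weeks, beside the same shares of all genes.

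Of 14 genes of substrate delivery, 8 fell and 2 rose at 6 weeks, where 18.4% of all tested genes fell and 22.7% rose. At 4 weeks 4 fell and 1 rose, beside 29.4% and 33.9%, so the number that fell was near the background share. VCP, the ATPase that extracts ubiquitinated proteins from complexes and membranes, fell at 6 weeks (-0.76, SE 0.1, adjusted p = 1.1e-08) and was not called at 4 weeks (-0.06, SE 0.1, adjusted p = 0.59). FAF1, a cofactor of VCP, fell at 4 weeks (-0.88) and was not called at 6 weeks (0.11). ZFAND2A, a stress-inducible protein that binds the proteasome, had medians of 18 CPM (6.02 to 50.8) in fed and 5.45 CPM (3.08 to 9.48) in fasted 6-week piglets, and every fasted pig lay below the fed median. It fell by 1.93 (SE 0.24, adjusted p = 6.1e-09) on the log2 scale. Among 9 ubiquitin and conjugating genes, 1 rose and 3 fell at 4 weeks and 2 rose and 2 fell at 6 weeks. The 3 falls at 4 weeks and both counts at 6 weeks were near the shares of all genes. UBE2R2, a conjugating enzyme, rose at 6 weeks (0.65), and UBE2G2, a conjugating enzyme of the endoplasmic reticulum pathway, fell at 4 weeks (-0.49).

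**Figure D5:**
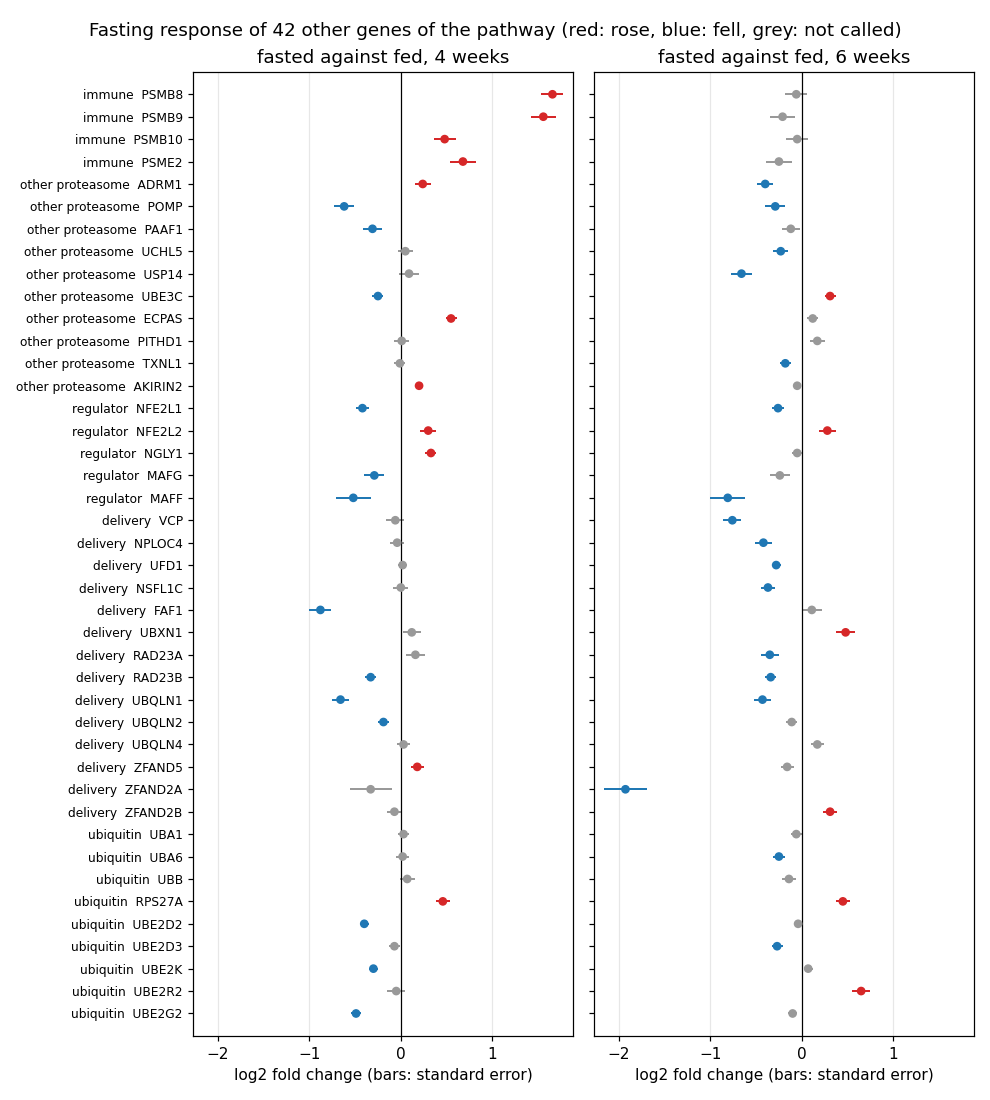
Log2 fold change of fasted against fed piglets (points, with standard error bars) for 42 other genes of the pathway at 4 weeks (left) and 6 weeks (right), with red for a rise, blue for a fall and grey for no call. PSMB8 and PSMB9 lie highest at 4 weeks (1.66 and 1.56) and ZFAND2A lowest at 6 weeks (-1.93).

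The genes share no single location. Of the 37 genes 36 were found by symbol in a RefSeq table of Sscrofa11.1, spread over 14 chromosomes with 6 on chromosome 12. PSMA5 lies on chromosome 4 from 110695429 to 110717308, PSMF1 on chromosome 17 from 34118324 to 34164723, and PSMD9 on chromosome 14 from 30793521 to 30822135. PSMD14 lies on chromosome 15 from 68107379 to 68208884. By that annotation, 9 of the 36 genes overlap another gene. They are PSMA3, PSMA7, PSMC1, PSMC5, PSMD1 (with HTR2B), PSMD6, PSMD10, PSMD14 (with TBR1) and PSME1. Since the strand setting is not given in the sources used here, counts there are uncertain.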

How the data were processed

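Mucosal scrapings of the mid-jejunum of 64 piglets were sequenced on a BGISEQ-500 from total RNA, per the labels' protocols. The authors deposited raw, unnormalized counts for each gene ID. STAR, HTSeq and the build Sscrofa11.1 are named in the submitters' processing notes, and their versions, the annotation release and the strand setting are not given in the sources used here. Reads where genes overlap are therefore uncertain. The 5 summary classes (reads outside genes 4.84 to 8.89%, ambiguous 5.5 to 7.64%) entered neither library sizes nor tests. Symbols were paired with 15029 of 31908 IDs.

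Library totals were 18774144 to 21159989 counts. No libraries of a group agreed within sampling noise. Genes kept by filterByExpr (14062) entered 1 edgeR 4.0.16 fit (R 4.3.3) of all 64 pigs with a mean per group, TMM scaling (factors 0.758 to 1.383) and robust quasi-likelihood F tests. P-values were adjusted by Benjamini-Hochberg within each comparison, over 14062 genes. CPM use the scaled library sizes. Ratios of counts used a pseudocount of 0.5 and 2-sided permutation tests with 100000 resamples (numpy 2.4.6), adjusted over 16 tests. PSMB8 and PSMB9 against PSMB7 replaced planned pairs after the IDs had been seen. Data were simulated for the 4-week fasting comparison with 14062 genes, of which 200 were changed. There 18% of genes changed 1.2-fold were recovered, 86% at 1.5-fold and 94% at 2-fold. In the data 33.9% of genes rose and 29.4% fell at 4 weeks, which alters the adjustment of p-values. The simulated recovery therefore does not carry over to the data.

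Values given whatever their result were those of PSMA1, PSMA5, PSMB7, PSMC4, PSMD1, PSMD4, PSMD10, PSMD11, PSMD14, PSME1, PSME3, PSME4 and PSMF1, with the 3 largest rises and falls per comparison, and PSMC5 was added after its values were seen. The pathway genes were a fixed set and the largest called change per list, and 1 gene of that set is not reported here. The members and lists were chosen with earlier results of these data known. Alternatives were other scalings, no filter, DESeq2 1.42.0, limma-voom (limma 3.58.1), a 1.2-fold threshold, marker covariates, fits of the compared groups only fits without single pigs, and a fit leaving out pigs 1, 28 and 32 of the fasted 4-week group, given the lowest weights by an earlier analysis of these data. The remaining marker lists moved as follows. The shares of all tested genes were 33.9% rising and 29.4% falling at 4 weeks, and 22.7% and 18.4% at 6 weeks. Of 11 absorptive enterocyte markers 2 rose and 4 fell at 4 weeks, and 1 rose and 2 fell at 6 weeks. Of 6 goblet markers 3 rose and 1 fell, then 0 rose and 4 fell. Of 9 T cell markers 5 rose, then 4, and none fell. Of 7 B cell markers 3 rose, then none passed (median -0.63). Of 7 plasma cell markers 6 rose and 1 fell, then 3 fell. Of 7 macrophage and dendritic markers 5 rose, then 2 fell. Sequences and transcript lengths were not used here.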

Additional observations from a re-analysis of the deposited data

Results flagged for a closer look

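For 30 of the 37 genes the fasting response differed between 6 and 4 weeks in edgeR's test of the difference itself, with an adjusted p under 0.05 over all genes tested. Of all tested genes 26.6% responded lower and 27.1% higher at 6 weeks. The values below are log2 differences, the 6-week response minus the 4-week response. In the alpha ring they were -0.72 for PSMA1, -1.43 for PSMA2, -1.09 for PSMA3, -0.51 for PSMA4, -1.89 for PSMA5 and -0.43 for PSMA7. In the beta ring they were -0.87 for PSMB2, -0.42 for PSMB3, -1.03 for PSMB4 and -0.28 for PSMB7. The base gave -0.49 for PSMC1, -0.4 for PSMC2, -0.5 for PSMC3, -0.37 for PSMC4, -0.42 for PSMD2 and -0.28 for PSMD4. All 8 lid genes were called, with -0.53 for PSMD3, -0.32 for PSMD6, -0.71 for PSMD7, -0.29 for PSMD8, -0.93 for PSMD11, -0.35 for PSMD12, -0.34 for PSMD13 and -0.98 for PSMD14. The remaining falls were -0.45 for PSMD5, -1.1 for PSMD10, -0.36 for PSME3, -1.3 for PSMF1 and -0.2 for PSME3IP1. PSMD9 alone responded higher at 6 weeks, by 0.55.

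In the same test, 1 of 10 further proteasome subunits and factors responded higher at 6 weeks and 5 lower, 0 and 1 of 5 regulators, 3 and 7 of 14 substrate delivery genes, and 4 and 2 of 9 ubiquitin and conjugation genes. The shares of all tested genes were 27.1% higher and 26.6% lower. Values follow only for those genes whose levels or changes are described above. The difference was -1.72 for PSMB8, -1.78 for PSMB9, -0.54 for PSMB10 and -0.93 for PSME2. It was -0.64 for ADRM1, -0.75 for USP14, -0.7 for VCP and -1.6 for ZFAND2A. It was positive for FAF1 (1), UBE2R2 (0.7) and UBE2G2 (0.39). These values are given with no explanation.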

How the results depend on the processing

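Across 11 alternatives (10 for the difference between responses), 30 falls at 6 weeks became 16 against a 1.2-fold threshold and otherwise ranged from 30 to 33. At 4 weeks 11 rises and 1 fall became 28 and 0 with library size alone, 6 and 0 at the 1.2-fold threshold, 5 and 8 with marker covariates, and without pig 19, left out after the data were seen, 11 and 5. The 29 lower differences became 15 at the 1.2-fold threshold and 17 with covariates. In fed piglets 13 age rises and 1 fall became 31 and 0 with library size alone, 5 and 0 at the 1.2-fold threshold, 10 and 2 with covariates, and 20 rises came from a fit of the compared groups only. In fasted piglets 25 age falls and 1 rise became 12 and 0 at the 1.2-fold threshold. Leaving out pig 19 or pig 51 gave 11 rises and 1 to 5 falls with fasting at 4 weeks, 30 falls at 6 weeks, 28 to 31 lower differences, 13 to 14 fed age rises and 21 to 27 fasted age falls.

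Values that turned their sign with a call were, with library size alone, 0.2 for PSME4, 0.23 for PSMA7, 0.18 for PSMD9, 0.21 for PSMC5 and 0.24 for PSMD2 at 4 weeks, and 0.19 for PSMC5 and 0.2 for PSMD8 in the fed age comparison, and, with covariates, -0.02 for PSME3IP1 at 4 weeks. A further 40 of 1998 values changed sign with no call under either setting, at most 0.2 in size. By medians, the PSME1 to PSME3 ratio turned to 0.03 in the fasted age comparison, and there the ratios to PSMB7 no longer passed (-0.27, adjusted p = 0.05, for PSMB8 and -0.24, adjusted p = 0.086, for PSMB9, by permutation). With a pseudocount of 5 the PSME1 to PSME3 ratio at 6 weeks passed (0.36, permutation adjusted p = 0.025). The causes were not tested. The groups share no pig number. Each odd number and the even one after it mark a fed pig and a fasted pig of equal age, but the labels do not say what such neighbours share, and a fit with them as a block was not run. Depth limits PSME1, with 10 to 45 counts per pig.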
